A study of Mus musculus with 29 samples.

Results

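The purinergic genes of mouse astrocytes and microglia described here are 10 genes: the ATP-gated channels P2rx4 and P2rx7, the nucleotide receptors P2ry1, P2ry6 and P2ry14, the ectoenzymes Entpd1, Entpd2 and Nt5e, and the adenosine receptors Adora1 and Adora2b. They were taken by gene symbol from the 36172 gene rows of the deposited table, and all 10 were found, 1 row each. The table holds 29 libraries of messenger RNA from brain of NuTRAP mice, in which Cre switches on an EGFP tag on the ribosomes, so that translating ribosome affinity purification (TRAP) with an antibody to GFP pulls down the RNA that the tagged cells were translating. The genotype Aldh1l1-Cre/Ert2+; NuTRAP+, where the Aldh1l1 promoter drives Cre in astrocytes, gave the bead-bound positive fraction (A Pos, n = 3) and the unbound negative fraction (A Neg, n = 3) of 3 mice. The genotype Cx3cr1-Cre/Ert2+; NuTRAP+, where the Cx3cr1 promoter drives Cre in microglia and in other cells of the macrophage lineage, gave positive (C Pos, n = 6), negative (C Neg, n = 6) and input (C Input, n = 6) libraries of 6 mice and whole-tissue libraries (C Slice, n = 5) of 5 of them. Per the methods of the study, all mice were of both sexes, were about 3 months old, carried 1 copy of Cre and 1 of NuTRAP, and had received tamoxifen (100 mg/kg a day for 5 days), so that every group, the reference fractions included, came from induced transgenic mice. The Cx3cr1-Cre allele replaces 1 copy of Cx3cr1 itself, and it is shared by all C groups and by none of the A groups.

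ATP leaves brain cells as a signal of activity or damage and acts on P2X channels and on G protein-coupled P2Y receptors. Ectoenzymes on the cell surface then remove its phosphates in steps: the nucleoside triphosphate diphosphohydrolases of the Entpd family cut ATP to ADP or AMP, and ecto-5'-nucleotidase, the product of Nt5e, cuts AMP to adenosine, which acts on receptors of its own. Microglia read these ligands to find damaged cells, and astrocytes both release ATP and answer it with calcium signals.

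Library totals lay between 8782235 and 26857866 counts, apart from the whole-tissue library of mouse 210 with 4260949. Levels are given as CPM, the counts of a gene per 1000000 counts of its library, and fold changes come from edgeR's quasi-likelihood test with Benjamini-Hochberg adjusted p-values over all genes tested in the comparison, after TMM scaling, which corrects for the make-up of the library. A gene was tested where every library of at least 1 of the groups compared held over 20 counts. The fractions carried the markers of their labels. All 8 astrocyte markers were higher in A Pos than in A Neg (median log2 fold change 3.19), with summed levels of 15620 to 23130 CPM against 2936 to 3834, and all 8 microglial markers were higher in C Pos than in C Input (median 3.69), with 3085 to 7418 CPM against 370.0 to 408.8. RNA of other cells was present in both. In C Pos the 8 neuronal markers summed to 5699 to 8548 CPM against 7804 to 8169 in C Input, and the 8 astrocyte markers to 2728 to 4201 against 4281 to 4630, so C Pos held much of the input level of either. The 6 markers of border macrophages, which also use Cx3cr1, summed to 67.3 to 210.7 CPM in C Pos against 10.1 to 15.98 in C Input, and the 5 markers of choroid plexus and ependyma summed to 2807 to 3337 CPM in A Pos against 471.4 to 618.5 in A Neg. The part of these cells in the values of the purinergic genes was not tested. In such bulk RNA, fewer cells of a type and less RNA per cell cannot be told apart.

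The 10 genes fell on both sides. Against A Neg, 4 of the 8 members that could be tested were higher in A Pos, Adora2b (10.4-fold), Entpd2 (9.95-fold), P2ry1 (2.84-fold) and Adora1 (1.75-fold), and 1 was lower, Nt5e. Among all 13324 genes tested in that comparison, 26.8% were higher and 24.8% lower. Against C Input, 4 of 10 were higher in C Pos, P2ry6 (11.2-fold), Entpd1 (6.13-fold), P2rx7 (1.98-fold) and P2rx4 (1.27-fold), and 3 were lower, P2ry1, P2ry14 and Nt5e, where 23.2% and 25.6% of 13840 genes were called higher and lower. Whether the share of members called differs from that of all genes was not tested, and the members' sizes and directions are given gene by gene. Entpd1 was called higher in A Pos as well where the mouse was a block.

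**Figure D1:**
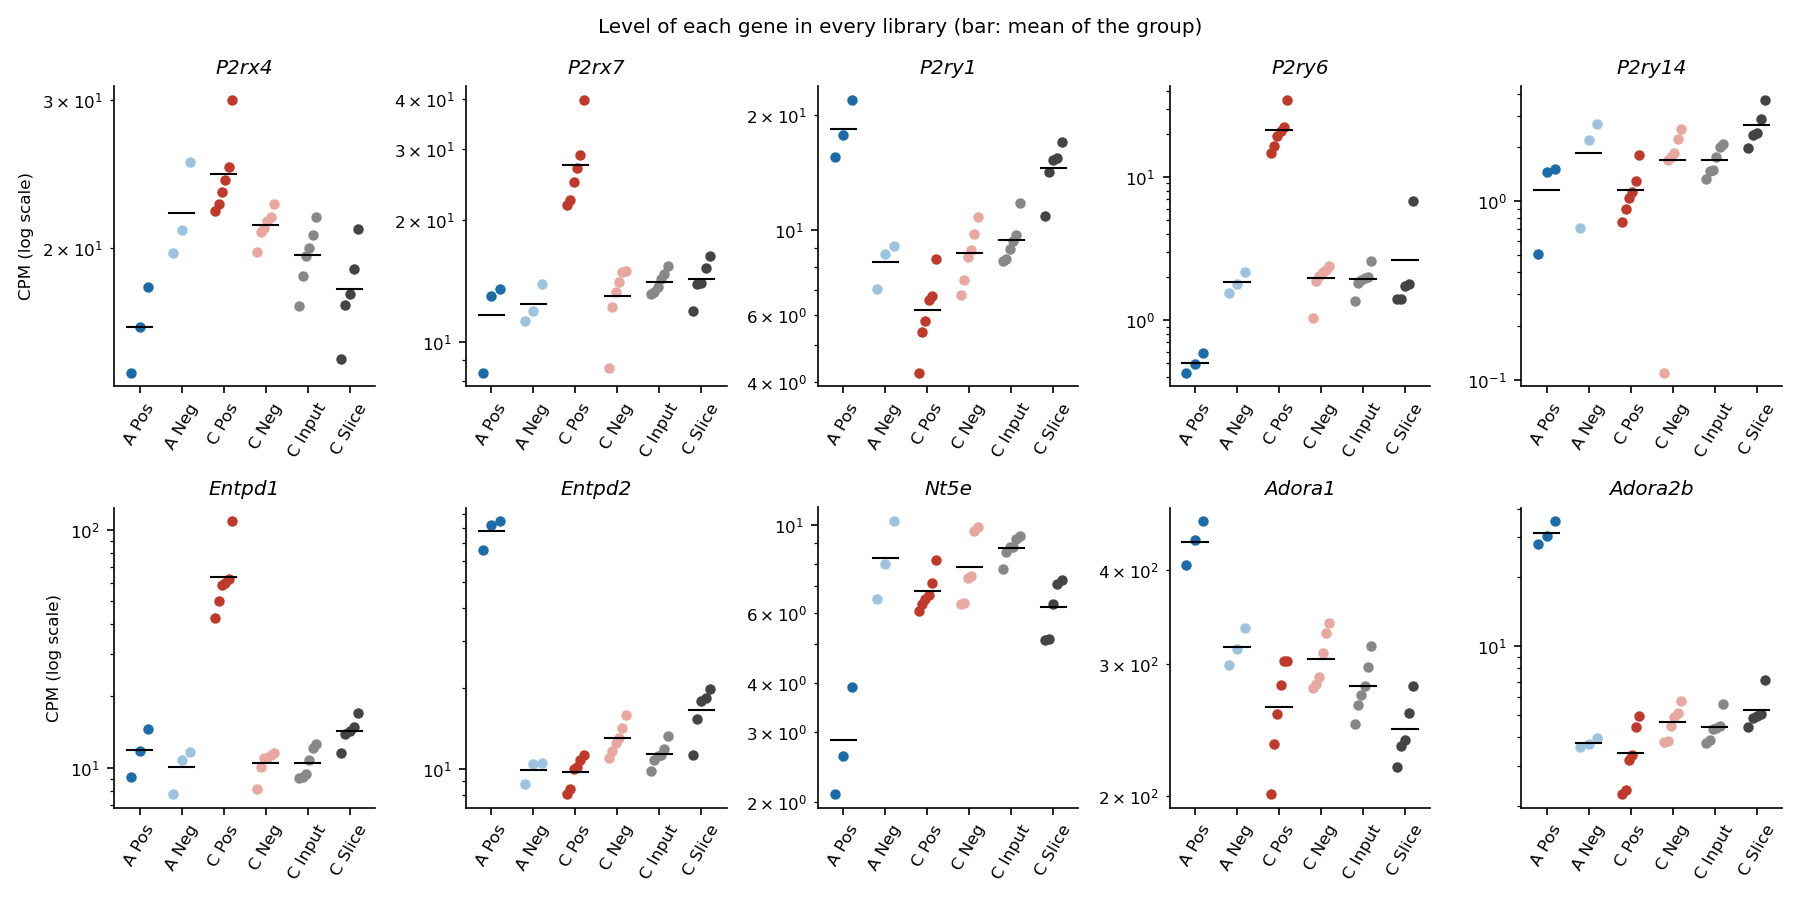
Level of each of the 10 genes in every library, in CPM on a log axis that differs between panels; points are libraries and bars the group means, for A Pos (n = 3), A Neg (n = 3), C Pos (n = 6), C Neg (n = 6), C Input (n = 6) and C Slice (n = 5). The C Pos points stand above all other groups for P2rx7, P2ry6 and Entpd1, and the A Pos points for Entpd2, Adora1 and Adora2b.

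P2rx7, the ATP-gated channel that opens at high ATP and is tied to inflammasome activation (chromosome 5, 122643911 to 122691432, plus strand, mm10), was highest in C Pos. Its 6 libraries held between 21.8 and 39.9 CPM with a median of 25.9, and the 6 C Input libraries between 13.1 and 15.4 with a median of 13.96. No C Pos library overlapped those of any other group, while the other 5 groups, from 8.38 to 16.3 CPM, overlapped each other. The gene rose in C Pos against C Input (log2 fold change 0.98 ± 0.14 SE, adjusted p = 5.9e-05), in 6 of 6 mice, and against C Neg (1.11 ± 0.17, adjusted p = 0.000214). In A Pos it stood at 8.38, 13.5 and 12.97 CPM and in A Neg at 11.3, 12.0 and 13.9 (mice 290, 293 and 294), so the groups overlapped. That difference did not pass the test (0.26 ± 0.22, adjusted p = 0.361, 95% interval -0.26 to 0.78), and with scaling to total counts alone its sign was the opposite (-0.09).

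P2rx4, the neighbouring gene on the same strand (122707557 to 122729042), encodes the channel that microglia carry largely inside lysosomes. Its levels were the most even of the receptors, from 14.2 to 30.1 CPM over all 29 libraries. C Pos held 22.1 to 30.1 CPM with a median of 23.7 and C Input 17.0 to 21.8 with a median of 19.8, without overlap. The difference was small and passed the test (0.34 ± 0.09, adjusted p = 0.007), was higher in 6 of 6 mice, and did not pass against C Neg (0.23 ± 0.09, adjusted p = 0.0666). It passed there without mouse 155 (0.0369), with a minimum of 100 counts (0.0475), with DESeq2 (0.0477) and with all groups in 1 fit (0.0463). A Pos held 17.9, 16.1 and 14.2 CPM and A Neg 25.3, 19.7 and 21.0, so that every A Pos library was below every A Neg library in CPM. After TMM scaling the difference was -0.10 ± 0.19 (adjusted p = 0.669), and with scaling to total counts alone, which moves the median of all genes to -0.31 in this comparison, it was -0.45 with an adjusted p of 0.0697.

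P2ry6, a receptor for UDP that drives microglial phagocytosis (chromosome 7, 100937634 to 100964366, minus strand), separated the fractions most. C Pos held 19.3, 22.3, 34.7, 14.7, 16.4 and 21.0 CPM in mice 155, 192, 194, 209, 210 and 277. The C Input libraries of the same mice held 1.97, 1.89, 1.99, 1.36, 2.57 and 1.82 CPM. The lowest C Pos library was above every other library of the series, and the gene was higher in 6 of 6 mice against C Input (3.48 ± 0.22, adjusted p = 3.91e-08) and in 6 of 6 against C Neg (3.47 ± 0.24, adjusted p = 6.47e-08), where it passed the count filter through C Pos alone (19 to 58 counts in C Neg). In A Pos it was near the floor, with 7, 9 and 11 counts (0.588, 0.429 and 0.493 CPM), below the 2.16, 1.55 and 1.79 CPM of A Neg. These counts were too low for the filter, and without the filter the gene was lower in A Pos by the same test (log2 fold change -1.48, adjusted p = 0.0303). The whole-tissue library of mouse 210, the shallowest, held 6.81 CPM from 29 counts, and the other 4 held 1.40 to 1.79. Against C Slice the log2 fold change of C Pos was 3.39 ± 0.39 (adjusted p = 1.75e-05).

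P2ry1, a receptor for ADP that sets off calcium release from stores (chromosome 3, 61002795 to 61008979, plus strand), went the other way. A Pos held 15.5, 17.8 and 22.0 CPM and A Neg 9.08, 7.04 and 8.67 in mice 290, 293 and 294, without overlap. It rose by a log2 fold change of 1.51 ± 0.21 (adjusted p = 0.000869), in 3 of 3 mice. C Pos held 4.24 to 8.39 CPM with a median of 6.19, mostly under the 8.31 to 11.8 of C Input, and the gene fell there (-0.59 ± 0.15, adjusted p = 0.00454), in 6 of 6 mice. The fall against C Neg was at the edge of the threshold (-0.46 ± 0.16, adjusted p = 0.049). The call was lost without any one of mice 155, 192, 194, 209 and 277, with adjusted p-values of up to 0.143.

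P2ry14, a receptor for UDP-glucose and other UDP-sugars, was scarce everywhere. No library held more than 3.71 CPM, A Pos held 0.504, 1.52 and 1.46 CPM, and C Pos 0.765 to 1.81 with a median of 1.08. It failed the filter in A Pos against A Neg and against C Pos, and in C Pos against C Neg and against C Slice. The test without the filter gave adjusted p-values of 0.701, 0.477, 0.424 and 0.00274 in that order, the last with a log2 fold change of -1.23. In C Pos against C Input it passed the filter through C Input alone, the group where it is higher (30.1 to 56.0 counts, against 14 to 34.2 in C Pos). The gene was lower in C Pos there (-0.55 ± 0.22, adjusted p = 0.0488), in 6 of 6 mice, but without the filter the adjusted p was 0.0947, with the mouse as a block it was 0.0656, and the call was lost under 10 of 12 alternatives, among them leaving out any mouse but 210 (adjusted p up to 0.18). P2ry14 (chromosome 3, 59114625 to 59130624, minus strand) lies inside Med12l, which is read from the opposite strand, and next to the receptor genes P2ry13 and P2ry12 on its own strand. The reads were assigned by strand, and Med12l stood at 11.2 to 20.6 CPM in A Pos and 39.6 to 51.2 in C Pos.

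The ectoenzymes Entpd2 and Entpd1 were each enriched in another fraction. Entpd2, which turns ATP into ADP and goes on slowly from there, was at 84.7, 81.7 and 66.2 CPM in A Pos of mice 290, 293 and 294 and at 10.4, 10.5 and 8.79 in their A Neg libraries. Every A Pos library was above all 26 others of the series, the next being a C Slice library at 19.9 CPM. The rise against A Neg was 3.32 ± 0.19 on the log2 scale (adjusted p = 4.14e-05), in 3 of 3 mice. In C Pos, Entpd2 stood at 8.04 to 11.2 CPM with a median of 10.1, and C Input at 9.78 to 13.3 (difference -0.20 ± 0.11, adjusted p = 0.134). It was lower than in C Neg (-0.39 ± 0.12, adjusted p = 0.0285), but with the mouse as a block the adjusted p was 0.0505, and it was up to 0.0954 without mouse 194, 209 or 277. The 3' end of Entpd2 (chromosome 2, 25395874 to 25401323, plus strand) overlaps Npdc1 on the same strand, where reads cannot be told apart. Npdc1 held 137 to 190 CPM in A Pos, 178 to 227 in A Neg and 178 to 222 in C Pos, and its part in the Entpd2 counts was not tested.

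Entpd1, also known as CD39, takes ATP through ADP to AMP and is the classical ectonucleotidase of microglia. C Pos held 59.8, 62.0, 108.7, 42.5, 50.1 and 58.6 CPM in mice 155, 192, 194, 209, 210 and 277, and C Input 9.39, 9.05, 10.8, 9.12, 12.5 and 12.1. The other 23 libraries reached at most 16.9 CPM, so C Pos stood alone. The rise was 2.62 ± 0.21 (adjusted p = 4.39e-07) against C Input, 2.63 ± 0.20 (adjusted p = 2.17e-07) against C Neg and 2.17 ± 0.23 (adjusted p = 8.35e-06) against C Slice. A Pos held 9.16, 14.6 and 11.7 CPM and A Neg 7.74, 11.7 and 10.7, with overlap between the groups. Within each of the 3 mice A Pos was above A Neg, by 0.51 to 0.72 on the log2 scale after scaling. Without a block the difference did not pass (0.58 ± 0.24, adjusted p = 0.0794), and with the mouse as a block it did (adjusted p = 0.0109), as it did without mouse 290 (0.0204).

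Nt5e, also known as CD73 and the step from AMP to adenosine, was low in all groups and lowest in A Pos, at 2.60, 3.91 and 2.09 CPM against 6.49, 7.996 and 10.2 in A Neg of mice 290, 293 and 294. All 3 A Pos libraries were below all others of the series. The fall against A Neg passed the test (-1.17 ± 0.31, adjusted p = 0.0165), in 3 of 3 mice, and without mouse 294 it did not (-0.80, adjusted p = 0.19). C Pos, at 6.08 to 8.17 CPM with a median of 6.60, overlapped C Input at 7.74 to 9.40 (-0.34 ± 0.10, adjusted p = 0.0139), lower in 5 of 6 mice. That call was lost without mouse 192 (adjusted p = 0.106) or mouse 209 (0.05).

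The sequence before the start of the 2 Entpd genes and of Adora2b is shown because Entpd1 had the largest rise of the member enzymes in C Pos, and Entpd2 and Adora2b had the largest rises of all members in A Pos. The windows are the 250 bases before the transcription start that RefSeq places on GRCm38.p6, the assembly of mm10, on chr19:40659520-40659769 (Entpd1), chr2:25395624-25395873 (Entpd2) and chr11:62248734-62248983 (Adora2b), all on the plus strand and read 5' to 3'. Capitals mark every match, on either strand, to GAGGAA or GGAAGT (cores bound by PU.1 and other ETS factors), TTGGCA (an NFI core), ACAATG or ACAAAG (SOX cores).
Entpd1: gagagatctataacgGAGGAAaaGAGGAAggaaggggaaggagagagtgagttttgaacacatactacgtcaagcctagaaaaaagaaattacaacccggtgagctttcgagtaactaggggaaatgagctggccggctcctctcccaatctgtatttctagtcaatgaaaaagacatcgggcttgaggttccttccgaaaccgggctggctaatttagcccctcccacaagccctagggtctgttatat
Entpd2: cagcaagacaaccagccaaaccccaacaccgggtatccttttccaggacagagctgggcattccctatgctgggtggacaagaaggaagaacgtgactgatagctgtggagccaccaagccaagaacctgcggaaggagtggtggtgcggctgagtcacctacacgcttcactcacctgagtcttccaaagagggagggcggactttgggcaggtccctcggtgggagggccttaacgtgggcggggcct
Adora2b: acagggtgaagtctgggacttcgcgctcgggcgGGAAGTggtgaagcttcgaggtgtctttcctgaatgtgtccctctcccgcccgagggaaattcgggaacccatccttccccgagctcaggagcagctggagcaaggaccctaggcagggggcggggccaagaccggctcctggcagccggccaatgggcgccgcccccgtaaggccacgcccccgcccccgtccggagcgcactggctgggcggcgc
Entpd1 holds 2 matches to GAGGAA, side by side at the far end of the window, Adora2b holds 1 match to GGAAGT, and Entpd2 holds none of the 5 strings. Of 32851 promoter windows of this length, 23.3% hold GAGGAA, 19.7% GGAAGT, 12.3% TTGGCA, 10.7% ACAATG and 16.5% ACAAAG on either strand, so such matches are common. Of the other members with a window, P2rx7 holds 1 ACAAAG, P2ry14 1 GAGGAA, Adora1 1 GGAAGT and 1 ACAAAG, and P2rx4, P2ry1 and Nt5e none. The windows differ in base composition, with 47.2% G and C in Entpd1, 59.2% in Entpd2 and 69.6% in Adora2b.

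Adora1, the high-affinity inhibitory adenosine receptor, had the highest level per kilobase of exon of the members in every library, and its CPM, not divided by length, ran from 201.4 to 464.2. A Pos held 405.4, 438.2 and 464.2 CPM and A Neg 299.4, 314.0 and 335.1 in mice 290, 293 and 294, without overlap, and the rise was 0.81 ± 0.13 (adjusted p = 0.00192), in 3 of 3 mice. Without mouse 293 or mouse 294 the adjusted p was 0.0605 or 0.0546. C Pos, at 201.4 to 302.8 CPM with a median of 269, overlapped C Input, C Neg and C Slice, and none of the 3 comparisons passed the test (log2 fold changes -0.08, -0.19 and 0.12). The gene is known best from neurons, and the summed level of 8 neuronal markers was 1605 to 2212 CPM in A Pos against 6983 to 8582 in A Neg, and 5699 to 8548 in C Pos.

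Adora2b, the low-affinity adenosine receptor that raises cyclic AMP, was at 35.2, 30.2 and 28.1 CPM in A Pos and at 3.76, 3.64 and 3.99 in A Neg of mice 290, 293 and 294. No library of any other group exceeded 7.13 CPM. The rise of 3.38 ± 0.19 on the log2 scale (adjusted p = 4.14e-05) was present in 3 of 3 mice. C Pos held 2.26 to 4.97 CPM with a median of 3.27, and its difference from C Input did not pass (-0.35 ± 0.19, adjusted p = 0.139), though it did without mouse 210 (-0.53, adjusted p = 0.0462). Against C Slice the gene was lower in C Pos (-0.62 ± 0.22, adjusted p = 0.032), and with the mouse as a block the adjusted p was 0.054, as it was up to 0.0862 without mouse 192, 194, 209 or 277.

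The astrocyte and microglial fractions were then compared directly. Of 9 members tested in A Pos against C Pos, 4 were higher and 4 lower, where 30.6% and 33.1% of 13679 genes were called. P2ry6 passed the count filter here through C Pos alone, the group where it is high (291.8 to 634.9 counts, against 7 to 11 in A Pos), so that it had to differ, and its fitted log2 fold change of -5.12 ± 0.39 (adjusted p = 9.13e-07) rests on those few counts. The largest differences of the other members were those of Adora2b, 11.3-fold higher (3.50 ± 0.23, adjusted p = 3.4e-07), Entpd2, 9.87-fold higher (3.30 ± 0.14, adjusted p = 1.92e-08), and Entpd1, 4.34-fold lower (-2.12 ± 0.31, adjusted p = 0.00014). P2ry1 was 3.69-fold and Adora1 2.06-fold higher in A Pos. P2rx7 and Nt5e were each 1.91-fold lower. In CPM, A Pos and C Pos did not overlap for any of these 8 members, nor for P2rx4, where 60.4% of the genes tested did not overlap. P2rx4 did not pass (-0.30 ± 0.15, adjusted p = 0.107, 95% interval -0.64 to 0.04), but with scaling to total counts alone it did (-0.61, adjusted p = 0.00346), and without mouse 290 as well (adjusted p = 0.0446). The lines, the mice and the targeted cells change together in this comparison and cannot be told apart. The paper gives a longer wait from tamoxifen to brain collection for the Cx3cr1 line than for flow cytometry and imaging of the Aldh1l1 line. Any such difference for the RNA libraries would change with the lines too.

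The negative fractions offer a reference within each line. The difference (A Pos minus A Neg) minus (C Pos minus C Neg) passed for the same 8 members and in the same directions, at 3.76 ± 0.31 for Adora2b, 3.66 ± 0.20 for Entpd2, 1.93 ± 0.27 for P2ry1, 0.95 ± 0.16 for Adora1, -5.03 ± 0.45 for P2ry6, -2.10 ± 0.34 for Entpd1, -1.05 ± 0.30 for Nt5e and -0.90 ± 0.29 for P2rx7. Among all 13986 genes tested, 25.6% were higher and 29.9% lower. P2ry6 again passed the filter through C Pos alone, with as few as 19 counts in a library of A Neg and of C Neg. This comparison shares the A Pos and C Pos libraries with the direct one. Without mouse 294, Nt5e (-0.66, adjusted p = 0.0922) and P2rx7 (-0.88, adjusted p = 0.0521) lost the call. P2rx4 did not pass here (-0.38), but with scaling to total counts alone it did (-0.655, adjusted p = 0.00255).

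**Figure D2:**
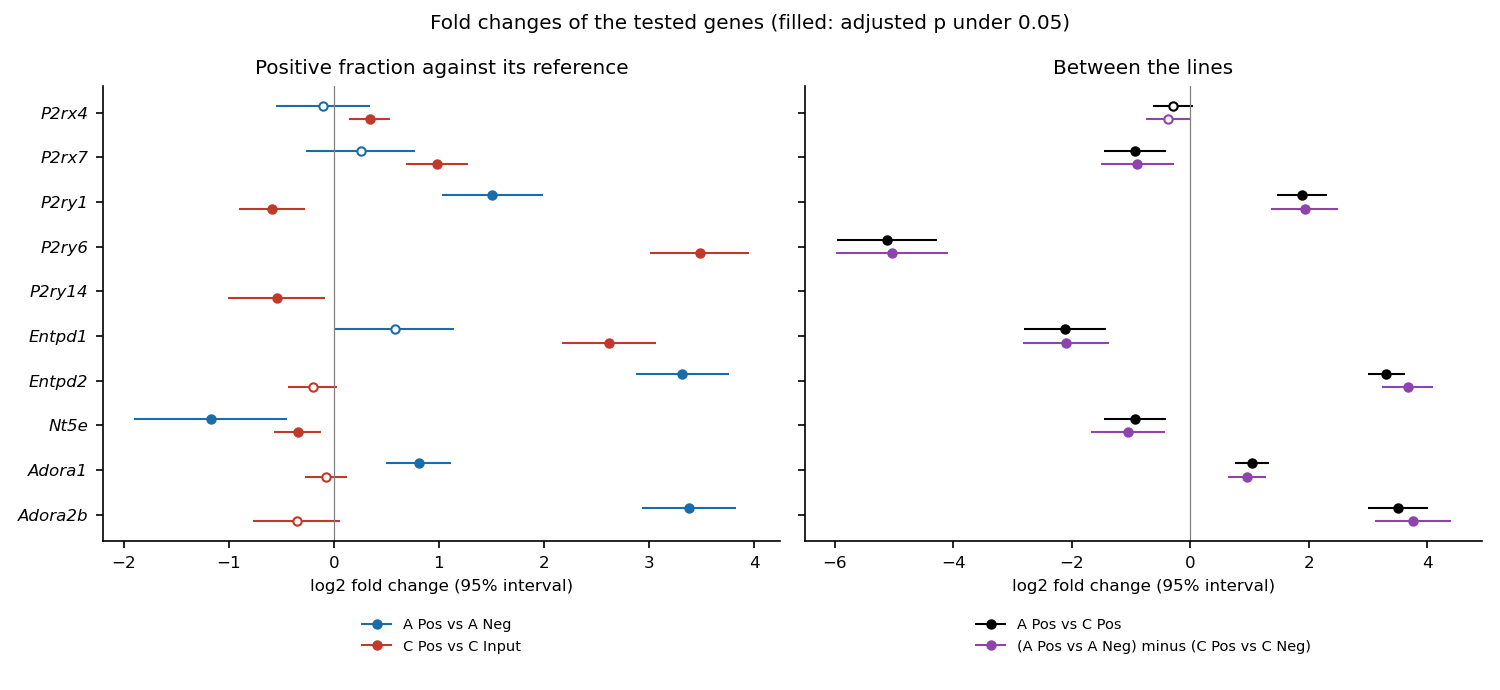
Log2 fold changes of the members with 95% intervals, on the left for A Pos against A Neg and C Pos against C Input, on the right for A Pos against C Pos and for the difference of Pos against Neg between the lines; filled points passed an adjusted p of 0.05, and untested members have no point. P2ry6 and Entpd1 lie to the right for C Pos, at 3.48 and 2.62, and Entpd2 and Adora2b for A Pos, at 3.32 and 3.38.

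Ratios of 2 members within a library do not depend on how libraries are scaled. The log2 ratio of Entpd2 to Entpd1 counts averaged 2.73 ± 0.41 (SD, n = 3) in A Pos and -2.64 ± 0.57 (SD, n = 6) in C Pos. In the other 4 groups its mean lay between -0.002 in A Neg and 0.31 in C Neg, as counts not divided by gene length. The 2 positive fractions thus went to opposite sides of the reference. The ratio of P2ry1 to P2ry6 was 5.12 ± 0.43 in A Pos and -1.76 ± 0.73 in C Pos, against 2.15 to 2.76 in the other groups. Nt5e to Entpd1 was -2.05 ± 0.36 in A Pos and -3.16 ± 0.36 in C Pos, both under the -1.20 to -0.25 of the others. Each of the 3 differences had an exact two-sided permutation p of 0.0238, the smallest that 3 against 6 libraries allow, and 0.0238 after adjustment over the 3 ratios. For Entpd2 to Entpd1 and P2ry1 to P2ry6, the genes of the pair already lay on opposite sides in these same libraries, without overlap in CPM. Their p was thus fixed in advance and adds no support. The pairs were also chosen with earlier results of these data known, and P2ry6 held only 7 to 11 counts in A Pos.

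**Figure D3:**
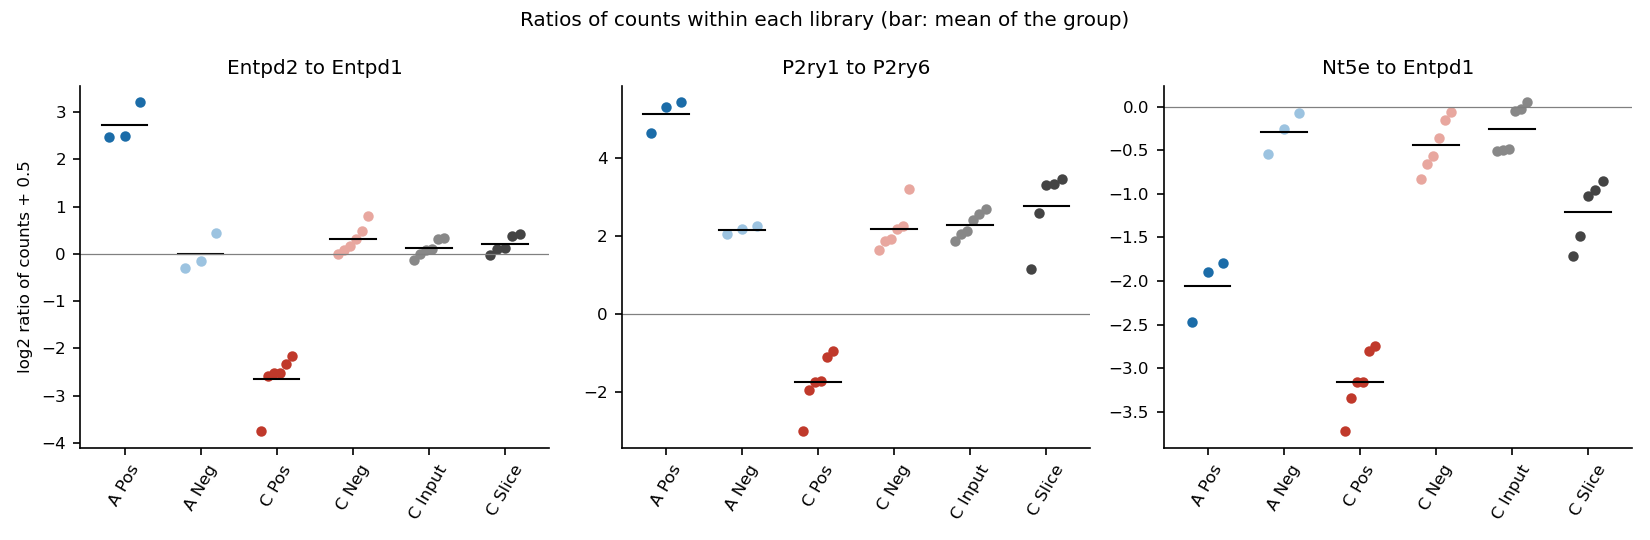
Log2 ratios of counts (plus 0.5) within each library for Entpd2 to Entpd1, P2ry1 to P2ry6 and Nt5e to Entpd1; points are libraries and bars the group means, with n = 3 for A Pos and A Neg, 6 for C Pos, C Neg and C Input and 5 for C Slice. For the first pair A Pos lies between 2.48 and 3.20, C Pos between -3.75 and -2.15, and the other groups near 0.

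The members enriched in C Pos did not all keep pace with the microglial markers. Per 1000 CPM of the 8 summed microglial markers, P2ry6 stood at 4.42 to 4.92 CPM in C Pos and at 3.69 to 6.60 in C Input, 2.36 to 6.30 in C Neg, 4.00 to 5.28 in A Neg and 4.47 to 7.13 in A Pos. Over marker sums from 62.3 to 7418 CPM its ratio to the markers thus stayed between 2.36 and 7.13, apart from the C Slice library of mouse 210 at 12.7. Entpd1 fell from 23.0 to 32.2 in C Input to 12.8 to 14.7 in C Pos, P2rx7 from 32.2 to 41.3 to 5.37 to 7.08, and P2rx4 from 42.7 to 58.8 to 4.05 to 7.31. In A Pos, where the markers summed to 62.3 to 131.6 CPM, the same ratio was 69.6 to 235 for Entpd1 and 63.8 to 217 for P2rx7. Against the 8 astrocyte markers, Entpd2 stood at 3.05 to 5.42 CPM per 1000 in A Pos and 2.30 to 3.57 in A Neg, Adora2b at 1.29 to 2.26 and 1.04 to 1.28, P2ry1 at 0.770 to 1.01 and 2.00 to 3.10, and Adora1 at 18.9 to 25.9 and 87.4 to 102. These ratios are descriptions, chosen after the values were seen.

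**Figure D4:**
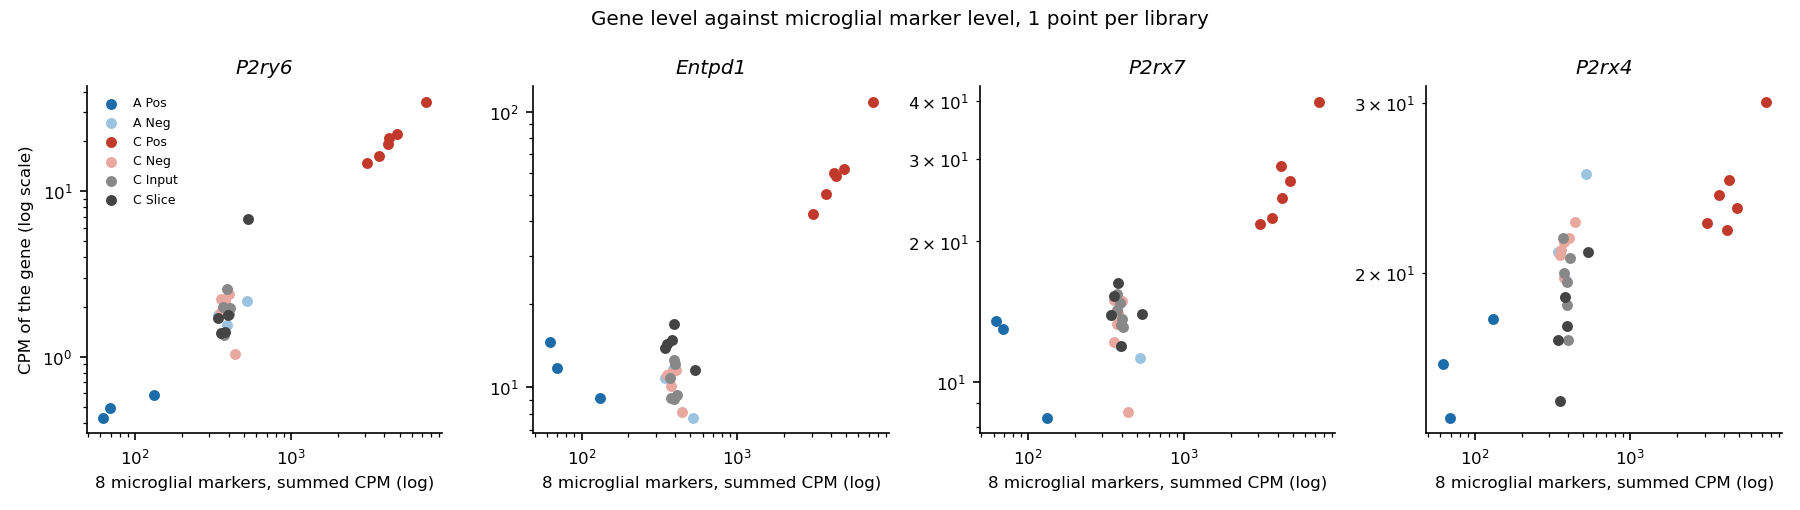
Level of P2ry6, Entpd1, P2rx7 and P2rx4 in CPM against the summed CPM of 8 microglial markers, both on log axes, with 1 point for each of the 29 libraries. P2ry6 rises with the markers from 0.429 to 34.7 CPM, while P2rx4 moves between 14.2 and 30.1 CPM.

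Levels of different genes were compared per kilobase of the exons of each gene. In A Pos the order was Adora1 (75.4 ± 5.09 CPM per kb, SD), Entpd2 (36.4 ± 4.67), Adora2b (16.9 ± 1.99), P2ry1 (4.30 ± 0.76), P2rx4 (2.29 ± 0.27), Entpd1 (2.12 ± 0.49), P2rx7 (1.95 ± 0.47), Nt5e (0.333 ± 0.11), P2ry6 (0.174 ± 0.028) and P2ry14 (0.105 ± 0.052). P2rx4, Entpd1 and P2rx7 do not differ there beyond their spread. In C Pos, Adora1 (45.5 ± 6.97) was followed by Entpd1 (11.4 ± 4.17), P2ry6 (7.41 ± 2.46), P2rx7 (4.61 ± 1.11), Entpd2 (4.59 ± 0.61), P2rx4 (3.49 ± 0.41), Adora2b (1.86 ± 0.60), P2ry1 (1.44 ± 0.33), Nt5e (0.792 ± 0.088) and P2ry14 (0.104 ± 0.033). P2rx7 and Entpd2 were level in C Pos, and so were Adora2b and P2ry1. Adora1 headed the list in all 6 groups, and it did not pass the test in C Pos against any C reference.

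The C Neg and C Input fractions gave no called difference for these genes, while C Input and C Slice differed in 5 of 10. In C Neg against C Input no member passed edgeR's test, 0 of 10, where 1.4% and 4.7% of 13749 genes were called higher and lower (193 and 646 genes, and 2432 and 2684 with the mouse as a block). DESeq2 called 763 genes higher and 1287 lower in that comparison, and 0 of the 10. With the mouse as a block Adora1 alone of the 10 passed (0.13, adjusted p = 0.0175). In C Input against C Slice, 1 of 10 was higher, Nt5e (0.50 ± 0.12, adjusted p = 0.0077), and 4 were lower, P2ry14 (-0.68 ± 0.20, adjusted p = 0.0212), P2ry1 (-0.64 ± 0.12, adjusted p = 0.00173), Entpd2 (-0.58 ± 0.12, adjusted p = 0.00217) and Entpd1 (-0.47 ± 0.12, adjusted p = 0.00807), against 16.3% and 14.2% of 13610 genes. In the same comparison all 7 endothelial markers and 7 of 8 oligodendrocyte markers were lower (medians -1.32 and -0.45) and 5 of 8 neuronal markers were higher (median 0.32), and their part in the members' values was not tested. For P2ry14 the adjusted p was 0.0616 with the mouse as a block and 0.111 and 0.0551 without mouse 194 or 277, and without mouse 210 Adora1 was higher too (0.27, adjusted p = 0.00665). Against C Slice as reference, 4 of 9 members tested were higher in C Pos and 3 lower, with 27.5% and 24.4% of 13474 genes called (3704 higher, and 2431 with the mouse as a block), and the 4 were those called against C Input. Against C Neg, 3 of 9 were higher, P2rx7, P2ry6 and Entpd1, and 2 lower, with 12.8% and 11.6% of 13777 genes called.

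Over the 29 libraries, the genes whose log2 CPM followed each member most closely, by Pearson's r among 14113 genes, differed between the members. For P2ry6 they were Irf8 (r = 0.981), Bin2 (0.980) and Fcgr3 (0.976), for Entpd1 Ctsc (0.976), Sipa1 (0.975) and Fmnl3 (0.970), and the 3 of P2rx7 included Tln1 (0.959) and Lcp1 (0.942). For Entpd2 they were Apln (0.980), Pgpep1 (0.979) and Glud1 (0.978), for Adora2b Csrp1 (0.977), Hadh (0.976) and 1700084C01Rik (0.975), and for P2ry1 Sqle (0.940), Gabrg1 (0.930) and Rhobtb3 (0.899). Adora1 was closest to Ptn (0.919), Klf9 (0.919) and Arl8a (0.909), Nt5e to Ano3 (0.911), Dscaml1 (0.910) and Camta2 (0.906), P2rx4 to Exosc8 (0.895), Lypla2 (0.888) and Nup85 (0.885), and P2ry14 to Fads3 (0.808), Grid1 (0.804) and Mgrn1 (0.796). The libraries share mice and fractions, so these values describe the grouping of the libraries as much as the genes.

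Another 32 genes of the pathway were listed by role. Of those, 22 could be tested in A Pos against A Neg, and 10 were higher and 7 lower (median 0.32), where 26.8% and 24.8% of all genes were (median 0.04). In C Pos against C Input 8 of 22 were higher and 6 lower (median -0.03), where 23.2% and 25.6% of all genes were (median -0.003). In A Pos against C Pos 10 of 23 were higher and 9 lower (median -0.08), where 30.6% and 33.1% of all genes were (median -0.08). Among the receptors, P2ry12, the ADP receptor that directs microglial processes, P2ry13, a second ADP receptor, and Adora3, an inhibitory adenosine receptor, were higher in C Pos than in C Input, by 3.14 ± 0.18, 3.20 ± 0.22 and 3.58 ± 0.29. Adora3 passed the count filter through C Pos alone, with 10.1 to 29.1 counts in C Input and 120.7 to 306.4 in C Pos. P2ry12 lay at 148.3 to 338.2 CPM in C Pos and 3.49 to 6.94 in A Pos, and P2ry13 at 53.0 to 129.0 and 0.476 to 1.20. P2ry12 and P2ry13 are neighbours of P2ry14 on chromosome 3 (59216271 to 59262831 and 59207894 to 59210882), and P2ry14 did not rise with them. P2ry2, a receptor for ATP and UTP that lies near P2ry6 on chromosome 7 (100996572 to 101011991), held 1.21 to 2.81 CPM in A Pos and 0.656 to 1.00 in C Pos (1.60 ± 0.31, adjusted p = 0.000912). It passed the filter through A Pos alone, with 27.0 to 44.8 counts there and 11.0 to 19.0 in C Pos.

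The other enzymes and channels of the chain moved in either direction. Adk, the adenosine kinase that returns adenosine to AMP, held 219.9 to 228.5 CPM in A Pos and 59.3 to 73.9 in A Neg (2.12 ± 0.16, adjusted p = 8.47e-05), and its C Pos level of 41.0 to 69.5 CPM did not differ by the test from C Input (-0.20 ± 0.11, adjusted p = 0.155). Alpl, the tissue-nonspecific alkaline phosphatase, which can also take AMP to adenosine, held 34.1 to 45.2 CPM in A Pos and 7.61 to 9.27 in A Neg (2.61 ± 0.19, adjusted p = 7.48e-05). The other 2 ectoenzymes of that list that could be tested were lower in A Pos than in A Neg, Entpd3 by -1.72 ± 0.32 (adjusted p = 0.00345) and Enpp1 by -1.56 ± 0.48 (adjusted p = 0.0295). Enpp1 passed the count filter through A Neg alone, the group where it is higher, with 31.6 to 73.7 counts there and 4.0 to 25.0 in A Pos. The connexin genes Gja1 and Gjb6, whose hemichannels can pass ATP, rose in A Pos by 2.90 ± 0.18 and 3.23 ± 0.17. Gjb6 is also among the 8 astrocyte markers. Panx1, a pannexin channel for ATP, was lower in A Pos than in A Neg (-1.21 ± 0.21, adjusted p = 0.00262) and slightly higher in C Pos than in C Input (0.33 ± 0.09, adjusted p = 0.0103), but it did not pass against C Neg (0.01 ± 0.12, adjusted p = 0.954) or C Slice (0.12 ± 0.12, adjusted p = 0.439). Pnp, which splits inosine and guanosine, was higher in both positive fractions, by 2.92 ± 0.24 in A Pos and 1.59 ± 0.15 in C Pos, and so was the nucleoside transporter Slc29a3 (1.14 ± 0.26 and 0.85 ± 0.12).

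**Figure D5:**
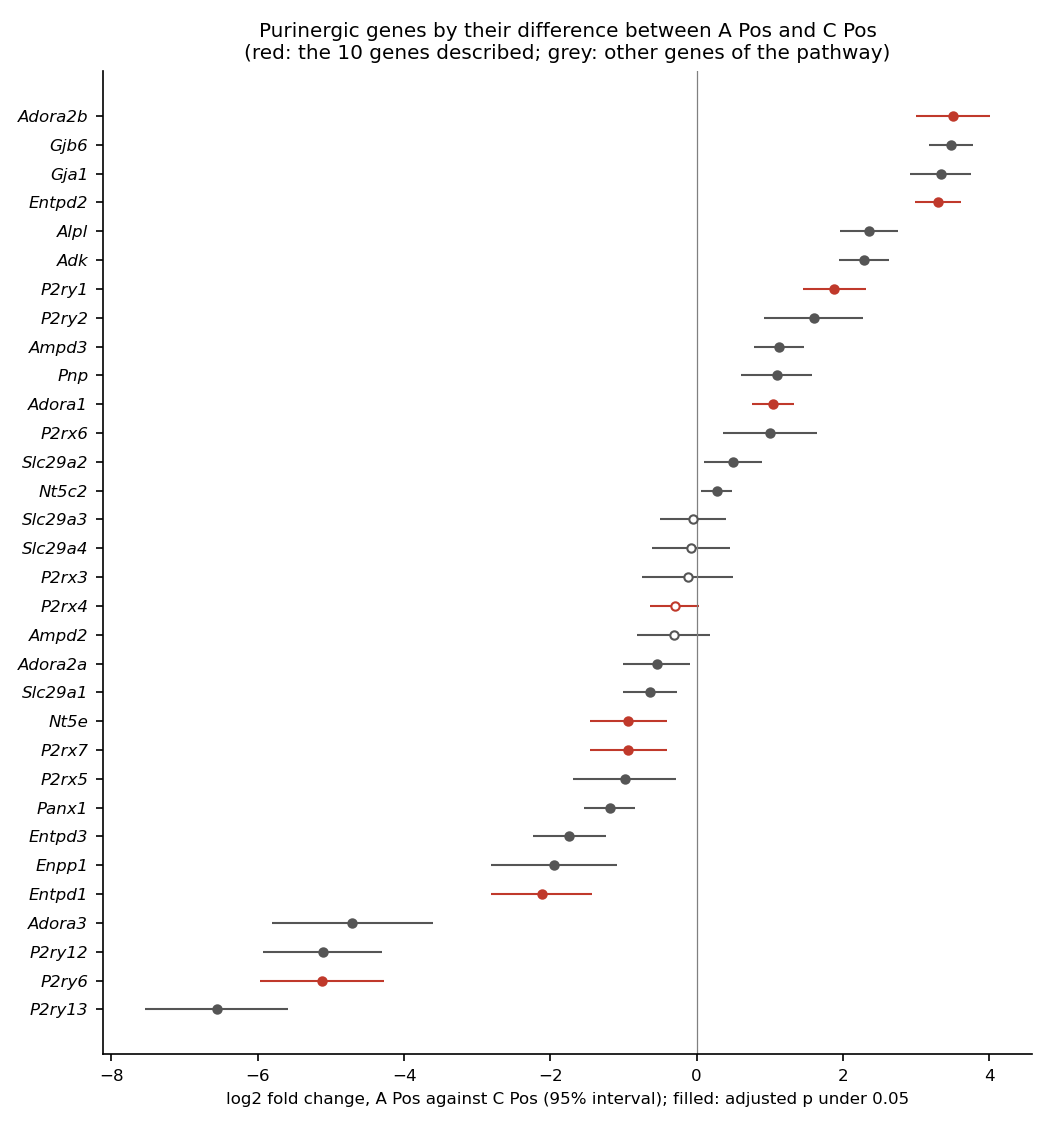
Log2 fold change of A Pos against C Pos with its 95% interval for the 9 members (red) and 23 other pathway genes (grey) that could be tested, in order; filled points passed an adjusted p of 0.05. P2ry13, P2ry6, P2ry12 and Adora3 form the lower end, from -6.56 to -4.71, where P2ry13 (10.0 to 14.2 counts in A Pos), P2ry6 (7 to 11) and Adora3 (4.47 to 6.00) passed the count filter through C Pos alone, and Adora2b, Gjb6, Gja1 and Entpd2 the upper end, from 3.30 to 3.50.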

How the data were processed

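The authors sequenced strand-specific poly(A) libraries, aligned them by strand to mm10 in Strand NGS and deposited 1 table with expected counts per gene and library, which need not be whole, beside log2 values that the authors normalized with DESeq. The log2 columns were not used here. Expected counts were rounded to whole numbers and tested with edgeR 4.0.16 in R 4.3.3 (TMM, robust quasi-likelihood fit, groups compared only, no block), on genes with over 20 counts in every library of at least 1 group, the study's own minimum. Depth ranged from 4260949 to 26857866 counts and sets the precision of the low genes. The 10 members, the gene lists and the tests were chosen with earlier results of these data known. The text names the members, genes of the fixed lists and, for each member, the 3 genes most like it. DESeq2 1.42.0, other scalings and filters, 1 fit of all groups, each mouse left out and the mouse as a block were alternatives. Same-numbered libraries came from the same animal, and the deviations of same-numbered libraries correlated above 0.1 in 3 of 3 pairs (A Pos and A Neg), 3 of 6 (C Pos with C Input, and with C Neg), 5 of 6 (C Neg with C Input) and 0 of 5 (both comparisons with C Slice). Nothing but the animal number marks a batch. The script was tested on simulated data. Positions follow the deposited table and GENCODE on mm10, and promoter windows RefSeq on GRCm38.p6. Of the genes with the pattern most like a member's, 1 is not reported here.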

Additional observations from a re-analysis of the deposited data

Results flagged for a closer look

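In 5 of 40 sets of a member and a group of 5 or 6 libraries, 1 library lay further from the others than Dixon's critical value allows, where chance gives about 1 in 20. Entpd1 at 108.7 CPM and P2rx4 at 30.1 CPM were highest in the C Pos library of mouse 194, which also had the highest sum of the 8 microglial markers (7418 CPM). The other C Pos libraries held 42.5 to 62.0 CPM of Entpd1 and 22.1 to 24.9 of P2rx4. P2ry6 stood at 6.81 CPM in the C Slice library of mouse 210, from 29 counts in the shallowest library, against 1.40 to 1.79 in the other 4. P2ry14 stood at 0.109 CPM in the C Neg library of mouse 155, from 2 counts, against 1.71 to 2.53 in the others. Adora2b stood at 7.13 CPM in the C Slice library of mouse 192 against 4.46 to 5.04.

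The difference between Pos and Neg was itself different between the lines for 8 members, by edgeR's test of (A Pos minus A Neg) minus (C Pos minus C Neg) on the log2 scale. Among all 13986 genes tested, 25.6% were higher and 29.9% lower. It was above 0 for Adora2b (3.76), Entpd2 (3.66), P2ry1 (1.93) and Adora1 (0.95). It was below 0 for P2ry6 (-5.03), Entpd1 (-2.10), Nt5e (-1.05) and P2rx7 (-0.90), of which Nt5e and P2rx7 did not pass without mouse 294. P2ry6 passed the count filter through C Pos alone, with 7 to 11 counts in A Pos. For Nt5e the difference lay in a fall in the A line, with Pos against Neg at -1.17 there and at -0.17, not called, in the C line.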

How the results depend on the processing

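Over 74 results of a member in a comparison, 916 of 968 alternatives kept the side of the threshold, and 56 of the 74 did so under all of them. The sign changed under 15 alternatives of 7 results, all of them differences that passed the test neither before nor after, such as P2ry14 in C Neg against C Input (0.02, range -0.15 to 0.20). The calls lost were 40 and those gained 12. The replicate block by mouse changed no member's call beyond those given in the text. Of the members lower in A Pos than in A Neg (1), the count was 2 with no filter on low counts and 0 with a minimum of 100 counts, which drops Nt5e. Members lower in C Pos than in C Input (3) were 1 with all groups in 1 fit. Members lower in C Pos than in C Neg (2) were 1 with DESeq2 size factors, no filter, the 100-count minimum or the block. Those lower than in C Slice (3) were 1 with the 100-count minimum, and genes higher than in C Slice (3704) were 2431 with the block. In C Neg against C Input, 193 genes were higher and 646 lower, and this was 51 and 221 with no filter, 763 and 1287 with DESeq2, 0 and 59 with all groups in 1 fit, and 2432 and 2684 with the block, where 1 member was higher. In C Input against C Slice, genes higher (2216) were 1168 and members lower (4) were 2 with all groups in 1 fit. Nt5c2, higher in A Pos than in C Pos at 0.27, was at -0.04 with scaling to total counts alone, which moves the median of all genes there to -0.39. The cause was not tested beyond what each alternative's construction shows.

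With each mouse left out in turn, genes higher in A Pos than in A Neg (3568) ranged from 1979 (without mouse 293) to 4887 and genes lower (3304) from 1600 (without mouse 294) to 4845, with members lower from 0 to 2. Members lower in C Pos than in C Input ranged from 1 to 4. For C Pos against C Neg, genes higher (1759) ranged from 1151 (without mouse 194) to 2090, genes lower (1592) from 570 (without mouse 192) to 2183 and members lower from 0 to 2. Genes higher in C Pos than in C Slice ranged from 2342 (without mouse 194) to 3873. Members lower in the difference between the lines (4) ranged from 2 to 4. In C Neg against C Input, genes higher ranged from 0 to 1774 and genes lower from 0 to 2040, both highest without mouse 155. In C Input against C Slice, genes higher ranged from 1324 to 2697, genes lower (1927) from 1203 to 2698 and members higher (1) from 1 to 2. The A Pos minus C Pos differences in log2 ratio, 5.37 for Entpd2 to Entpd1, 6.87 for P2ry1 to P2ry6 and 1.10 for Nt5e to Entpd1, ranged from 5.13 to 5.49, 6.62 to 7.11 and 0.97 to 1.31. Without an A mouse the smallest exact p the design allows is 0.0714, so the threshold could not be reached. P2ry14 and, in A Pos, P2ry6 rest on few counts, and the 3 mice of the A line limit the smaller differences there.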

Other observations

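Adora2a, the adenosine receptor of striatal neurons, differed most between the whole-tissue and input libraries among the listed genes. It held 36.9 to 41.2 CPM in the 6 C Input libraries and 2.84, 8.15, 2.38, 14.8 and 1.69 CPM in the C Slice libraries of mice 192, 194, 209, 210 and 277, without overlap (log2 fold change 3.02 ± 0.43, adjusted p = 0.00057 by edgeR). Values relative to C Slice therefore stand against a reference whose libraries differed in this striatal gene from the other C groups.

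P2rx1, an ATP-gated channel outside the 10 members, failed the count filter in every comparison. Its libraries held 0.695 to 2.03 CPM in C Pos and 0.0886 to 0.442 in C Input, from 12.0 to 37.1 and 2.0 to 7.99 counts. The test without the filter gave a log2 fold change of 2.44 with an adjusted p of 0.000148, which rests on those few counts.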
